A study of Mus musculus with 58 samples.

Results

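A group of 7 genes whose products break down stored fat or regulate that breakdown was followed in ribosome-bound mRNA of beige, brown and white mouse adipocytes: Pnpla2, Abhd5, G0s2, Lipe, Mgll, Aqp7 and Pnpla3. They were taken by symbol, and 7 of 7 were found among the 11603 rows of the deposited table. In adipocytes, triglyceride is cut in steps on the surface of the lipid droplet. The lipase encoded by Pnpla2 (ATGL) removes the first fatty acid, with Abhd5 (CGI-58) as its coactivator and G0s2 as its inhibitor. Hormone-sensitive lipase, from Lipe, acts on diglyceride and monoglyceride lipase, from Mgll, acts on monoglyceride, while the aquaglyceroporin Aqp7 lets the freed glycerol leave the cell. In brown and beige fat the fatty acids feed heat production, and noradrenaline acting through cAMP is the classical trigger of lipolysis in the cold. Pnpla3 encodes a lipid droplet protein related to ATGL that is known to bind ABHD5.

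The series measured messenger RNA in 22 libraries and histone marks in 36 chromatin samples, and the chromatin samples are not analysed here. Ribosomes carrying the tag were captured with an antibody to GFP from fat of NuTRAP mice on the C57BL/6J background, in which a Cre driver switches on the tag. The labels name an Ucp1-driven and an Adipoq-driven line without giving the line of each library or the age of the mice, and nothing beyond the words biological replicate says that libraries came from separate animals, so p-values measure the spread between these libraries. A housing temperature of 23 °C is given for the mice of the beige and brown groups. Warm beige libraries (n = 3, inguinal fat) and warm brown libraries (n = 5, interscapular fat) came from mice kept at 4 °C for 1 week and then at 30 °C for 4 weeks. Cold beige libraries (n = 4) and cold brown libraries (n = 5) came from the same depots after the week at 4 °C. Warm white libraries (n = 5, inguinal fat) came from mice that were born and kept at 30 °C. The 4 added weeks and the temperature itself therefore cannot be told apart in the comparisons of warm with cold, and comparisons with white differ in the earlier cold as well. Comparisons of brown with beige or white also differ in depot. Whether the Cre driver differs between groups is not given for these libraries. No cold white libraries were analysed here.

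Ucp1, the uncoupling protein of thermogenic adipocytes, lay between 0.38 and 1.53 log2 CPM in warm beige libraries and between 11.16 and 11.71 in cold beige libraries. It lay between 8.37 and 9.20 log2 CPM in warm brown libraries, between 11.92 and 12.49 in cold brown libraries and between -5.59 and -1.11 in warm white libraries. Adipoq, a general adipocyte marker, averaged 9.31 log2 CPM in warm beige, 8.56 in cold beige, 9.61 in warm brown, 9.36 in cold brown and 10.11 in warm white libraries, and was called higher in warm than in cold beige (0.76 ± 0.17, limma adjusted p = 0.000331). The 8 general adipocyte markers together summed to 11500 to 15600 CPM in warm beige, 6930 to 7550 in cold beige, 5890 to 6390 in warm brown, 5510 to 6070 in cold brown and 16400 to 19800 in warm white. With warming, 5 of the 8 were called higher and 1 lower in beige, and 3 higher and 4 lower in brown. The summed level of 10 fibroblast and preadipocyte markers was 8050 to 12000 CPM in warm beige libraries, 1610 to 2080 in cold beige, 570 to 739 in warm brown, 62.9 to 120 in cold brown and 12300 to 14800 in warm white. Endothelial markers (10 genes) summed to 568 to 889 CPM in warm beige, 171 to 361 in cold beige, 130 to 228 in warm brown, 55.6 to 189 in cold brown and 56.1 to 83.3 in warm white libraries. With warming, 8 of 10 fibroblast markers and 8 of 10 endothelial markers were called higher in beige libraries, where 36.0% of all rows were, and 9 of 10 and 4 of 10 in brown libraries, where 41.2% were. Skeletal muscle markers were called higher for 6 of 7 in beige and 0 of 7 in brown, smooth muscle and pericyte markers for 3 of 6 and 1 of 6, and macrophage markers for 3 of 7 and 2 of 7. The part these markers play in the lipolysis results was not tested, and in bulk material fewer cells of a type and less RNA per cell cannot be told apart.

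Values are log2 CPM as deposited (CPM is the read count of a gene scaled to a common library total), and all comparisons come from one limma fit of the 22 libraries with adjustment over all 11603 rows at a threshold of 0.05. In warm against cold beige libraries, 5 of the 7 genes fell and 0 rose, where 36.9% of all rows were called lower and 36.0% higher. In warm against cold brown libraries, 3 of 7 fell and 1 rose, where 30.1% of all rows were called lower and 41.2% higher. With 72.9% of all rows called in either direction in beige and 71.3% in brown, the number of genes called was near the background, and the results lie in which genes moved and by how much. Mgll, Abhd5 and Pnpla3 fell in both cell types by between 2.06-fold and 3.49-fold. Lipe was called in neither.

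**Figure D1:**
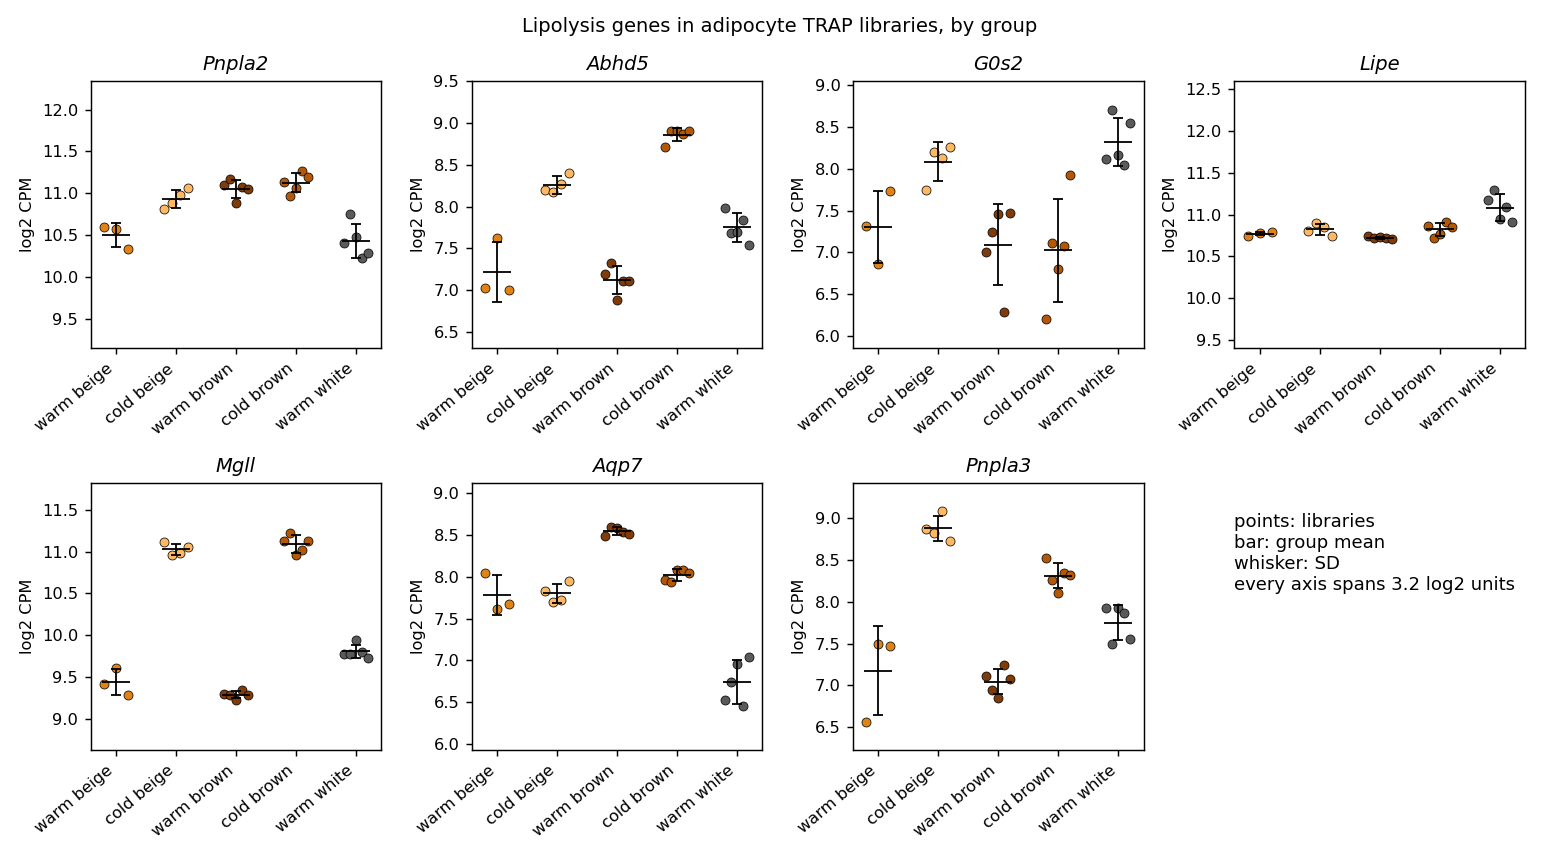
Level of each of the 7 lipolysis genes in log2 CPM (vertical axis, spanning the same 3.2 log2 units in every panel) in the warm beige, cold beige, warm brown, cold brown and warm white libraries. Points are libraries, bars are group means and whiskers are SDs; for Mgll, Abhd5 and Pnpla3 all warm beige and warm brown points lie below all cold beige and cold brown points.

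The upstream sequences of Mgll, Abhd5 and Pnpla3 are shown because these are the 3 genes that fell in both cell types. Each is the 250 bases before a RefSeq transcript start on GRCm38.p6 (the mm10 assembly), 5′ to 3′ on the gene's strand, which is the plus strand for all 3. Mgll (chromosome 6, 88724412 to 88828360) is shown at chr6:88724162-88724411, the first of its 2 RefSeq starts. Abhd5 (chromosome 9, 122351616 to 122381524) is shown at chr9:122351366-122351615, and Pnpla3 (chromosome 15, 84167776 to 84189521) at chr15:84167566-84167815. Capitals mark matches on either strand to the cAMP response element TGACGTCA, its half-site TGACG (which the full element contains), the E-box CACGTG or the nuclear receptor half-site AGGTCA.
Mgll: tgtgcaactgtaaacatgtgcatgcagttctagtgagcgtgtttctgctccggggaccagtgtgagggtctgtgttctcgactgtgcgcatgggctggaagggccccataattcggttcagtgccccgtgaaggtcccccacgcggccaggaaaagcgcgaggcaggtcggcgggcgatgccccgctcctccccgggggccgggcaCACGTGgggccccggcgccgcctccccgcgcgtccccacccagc
Abhd5: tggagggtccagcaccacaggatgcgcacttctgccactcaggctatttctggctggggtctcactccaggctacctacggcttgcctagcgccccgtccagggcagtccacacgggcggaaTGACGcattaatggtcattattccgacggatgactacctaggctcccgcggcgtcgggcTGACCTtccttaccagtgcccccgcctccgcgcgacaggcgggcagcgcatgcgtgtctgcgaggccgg
Pnpla3: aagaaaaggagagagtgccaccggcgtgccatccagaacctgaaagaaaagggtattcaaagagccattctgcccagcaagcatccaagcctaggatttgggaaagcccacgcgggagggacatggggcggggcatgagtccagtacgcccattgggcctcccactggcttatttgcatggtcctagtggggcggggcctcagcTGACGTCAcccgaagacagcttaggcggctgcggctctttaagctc
The Pnpla3 window held the full cAMP response element 46 bases before its transcript start, a match found in 1.55% of 32851 RefSeq promoter windows of this length. That transcript start lies downstream of the gene start at 84167776. The window therefore ends inside the gene as given, and the element falls across that gene start. Abhd5 held the half-site TGACG 128 bases before the start (17.8% of windows) and AGGTCA, read on the minus strand, 69 bases before it (14.0% of windows). The Mgll window held the E-box 44 bases before its start (6.02% of windows) and no match to the other 3 motifs. These are matches of letters and do not show that a factor binds. Of the other 4 genes, G0s2 held TGACG, and the first of 2 Lipe windows held CACGTG. Both Aqp7 windows held AGGTCA, but these windows overlap and share a site. The Pnpla2 window (chromosome 7, starting at 141454938) held none of the 4 motifs.

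Pnpla2, the lipase of the first step (chromosome 7, 141455188 to 141460743), fell modestly in beige libraries and differed little with temperature in brown ones. It had 10.60, 10.57 and 10.33 log2 CPM in warm beige libraries, against 10.81, 10.88, 10.98 and 11.06 in cold beige libraries. These groups did not overlap. Warm beige was 1.35-fold lower than cold beige, a log2 difference of -0.43 ± 0.12 (limma SE, adjusted p = 0.00201). The call ended under quantile normalization (-0.08, adjusted p = 0.565) and when the 20 most abundant genes were left out of the library totals (-0.21, adjusted p = 0.0814). The deposited values divide the libraries into a set of 10 and a set of 12 (library sets 1 and 2, read from rows at the floor, since the labels name no batch), and the difference was -0.61 within set 1 (adjusted p = 0.0653) and -0.35 within set 2 (adjusted p = 0.0193). Pnpla2 had 11.10, 11.17, 10.88, 11.07 and 11.05 log2 CPM in warm brown libraries, against 11.14, 10.97, 11.06, 11.26 and 11.20 in cold brown libraries. These groups overlapped, and the log2 difference was -0.07 with a 95% interval of -0.27 to 0.13 (limma, adjusted p = 0.509); quantile normalization turned it to 0.23 (adjusted p = 0.0487). The difference between the beige and the brown effect was -0.36 ± 0.15 (limma SE, adjusted p = 0.0523), just outside the threshold. It passed in 10 of 32 alternatives, among them the fits without warm beige 1, cold beige 1, warm brown 3 or cold brown 4, whose adjusted p lay between 0.0343 and 0.0427.

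Across cell types Pnpla2 was higher in both brown groups and in cold beige than in white. Warm white libraries had 10.41, 10.75, 10.48, 10.23 and 10.28 log2 CPM, below every brown and every cold beige library. The log2 difference from warm white was 0.07 ± 0.11 in warm beige (limma, adjusted p = 0.648), 0.50 ± 0.10 in cold beige, 0.62 ± 0.10 in warm brown and 0.70 ± 0.10 in cold brown (adjusted p = 0.000112, 3.27e-06 and 4.83e-07). Within library set 1 the cold beige value was 0.46 (adjusted p = 0.0502). Warm beige was 1.47-fold lower than warm brown (-0.55 ± 0.11, limma adjusted p = 0.000104). Cold beige and cold brown did not pass (-0.19, 95% interval -0.40 to 0.02, limma adjusted p = 0.102), except under median-of-ratios scaling (-0.30, adjusted p = 0.0119). The brown means were 11.05 in the warm and 11.13 in the cold, the beige means 10.50 and 10.93, and the white mean 10.43 log2 CPM; the brown groups were not separated from each other by the test, nor warm beige from white.

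Abhd5, the coactivator that Pnpla2's lipase needs for full activity, moved far more with temperature than the lipase gene itself. It had 7.03, 7.63 and 7.00 log2 CPM in warm beige libraries, against 8.20, 8.17, 8.27 and 8.40 in cold beige libraries. In warm brown libraries it had 7.19, 7.33, 6.88, 7.11 and 7.11 log2 CPM, against 8.72, 8.91, 8.91, 8.87 and 8.90 in cold brown libraries. Neither pair of groups overlapped, and warm beige 2 was the highest of the rewarmed libraries. Warm beige was 2.06-fold lower than cold beige (-1.04 ± 0.13, limma adjusted p = 1.62e-07), and warm brown was 3.34-fold lower than cold brown (-1.74 ± 0.10, limma adjusted p = 2.07e-12).

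The fall of Abhd5 was larger in brown than in beige. The beige effect minus the brown effect was 0.70 ± 0.16 log2 units (limma adjusted p = 0.00133), which made Abhd5 1 of 7 members called higher in this comparison, where 14.8% of all rows were. Aqp7 was the 1 member called lower, where 32.4% of all rows were, and 47.2% of all rows were called in either direction. Within library set 1, which has 1 warm beige library, the Abhd5 difference was 0.26 (adjusted p = 0.543), and within set 2 it was 0.97 (adjusted p = 0.00192). Abhd5 started from a higher level in the cold brown cells: cold beige was 1.52-fold below cold brown (-0.60 ± 0.11, limma adjusted p = 7.61e-05), whereas warm beige and warm brown did not pass (0.10, 95% interval -0.16 to 0.35, limma adjusted p = 0.479).

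Warm white libraries had 7.99, 7.69, 7.70, 7.84 and 7.54 log2 CPM of Abhd5, between the cold and the rewarmed groups. The log2 difference from warm white was -0.53 ± 0.12 in warm beige, 0.51 ± 0.11 in cold beige, -0.63 ± 0.10 in warm brown and 1.11 ± 0.10 in cold brown (limma adjusted p = 0.00135, 0.000278, 1.06e-05 and 1.09e-09). Warm beige 2 overlapped the white range. These 4 comparisons share the warm white libraries. The order of means was cold brown (8.86), cold beige (8.26), warm white (7.75), warm beige (7.22) and warm brown (7.12 log2 CPM), and each neighbour differed from the next except the last pair.

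G0s2, whose small protein inhibits the Pnpla2 lipase (chromosome 1, 193272160 to 193273188), had the largest SDs of the 7 genes in both brown groups, 0.49 in the warm and 0.62 in the cold. It had 7.32, 6.86 and 7.73 log2 CPM in warm beige libraries, against 7.74, 8.20, 8.13 and 8.26 in cold beige libraries. The groups met at warm beige 3 (7.73) and cold beige 1 (7.74). Warm beige was 1.72-fold lower (-0.78 ± 0.30, limma adjusted p = 0.0245). That call was lost without warm beige 1 (adjusted p = 0.0501), warm beige 2 (0.145), cold beige 2 (0.0503) or cold beige 4 (0.0544), under 3 other scalings of the libraries (adjusted p = 0.0769 to 0.122) and within library set 1 (-0.27, adjusted p = 0.567, against -1.08 and 0.0247 in set 2). In brown, G0s2 had 7.00, 7.24, 7.46, 6.29 and 7.47 log2 CPM in warm libraries, against 6.20, 7.11, 6.80, 7.08 and 7.92 in cold libraries. These ranges overlapped almost entirely (0.07 ± 0.25, 95% interval -0.45 to 0.59, limma adjusted p = 0.811). The difference between the effects was -0.85 ± 0.39 (limma adjusted p = 0.0789), and it passed without warm beige 3, warm brown 4 or cold brown 5 (adjusted p = 0.0147 to 0.0411).

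The separation of G0s2 was clearer between both brown groups and warm white. Warm white libraries had 8.12, 8.70, 8.17, 8.05 and 8.55 log2 CPM, above every warm beige, warm brown and cold brown library. G0s2 was lower than in warm white by 2.02-fold in warm beige, 2.34-fold in warm brown and 2.46-fold in cold brown (limma adjusted p = 0.0076, 0.000115 and 4.86e-05), and the first of these was lost without warm beige 2 (-0.79, adjusted p = 0.065) and within either library set (adjusted p = 0.184 and 0.059). Cold beige did not differ from warm white by the test (-0.24, 95% interval -0.78 to 0.31, limma adjusted p = 0.425). It was 2.09-fold higher than cold brown (1.06 ± 0.26, limma adjusted p = 0.0015), although cold brown 5 (7.92) lay above cold beige 1 (7.74). Warm beige and warm brown did not pass (0.21, 95% interval -0.39 to 0.81, limma adjusted p = 0.513). In rising order of level, the means were 7.02 in cold brown, 7.09 in warm brown, 7.30 in warm beige, 8.08 in cold beige and 8.32 log2 CPM in warm white.

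The log2 level of Abhd5 minus that of G0s2 was taken within each library, a pair chosen after the values were seen because one gene activates and the other inhibits the same lipase. Levels of different genes in CPM are not corrected for length, so only the change of this quantity between groups can be read, and no test was made. It averaged -0.08 ± 0.77 in warm beige and 0.18 ± 0.21 in cold beige libraries (SD). In brown libraries it averaged 0.03 ± 0.54 in the warm and 1.84 ± 0.57 in the cold, with ranges of -0.58 to 0.82 and 0.98 to 2.52 that did not overlap. Warm white libraries averaged -0.57 ± 0.42. All 5 cold brown libraries stood above all others, the nearest being warm brown 4 at 0.82.

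**Figure D2:**
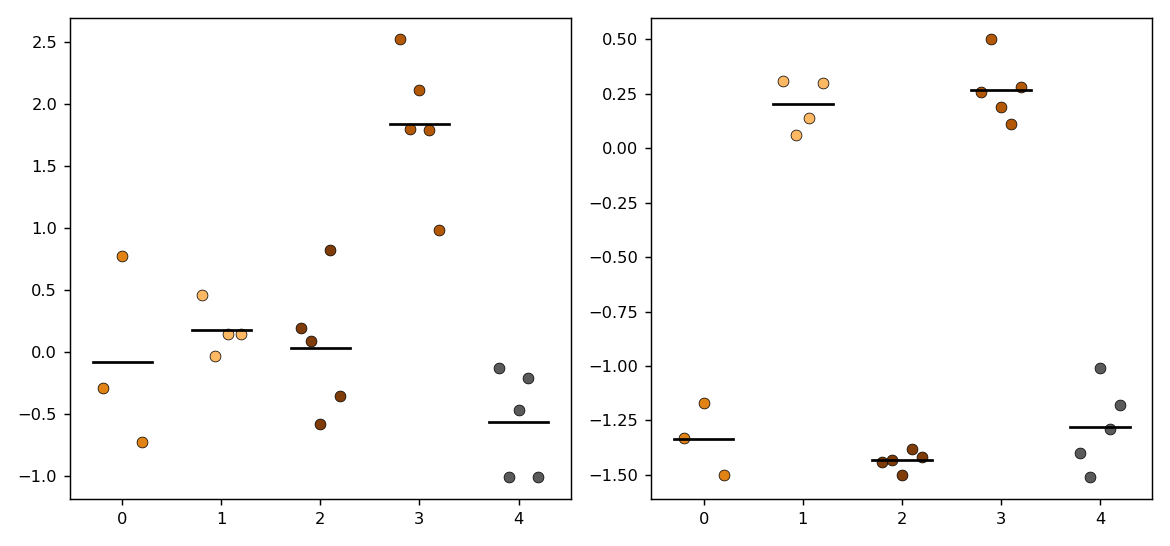
Difference in log2 CPM between Abhd5 and G0s2 (left) and between Mgll and Lipe (right) within each library, by group; points are libraries and bars are group means. Cold brown libraries (0.98 to 2.52) lie above all others on the left, and both cold groups (0.06 to 0.50) lie above all warm groups (-1.51 to -1.01) on the right.

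Pnpla3, the Pnpla2 relative, followed Abhd5 in falling with warming in both cell types, with its highest level in cold beige libraries. It had 6.56, 7.49 and 7.47 log2 CPM in warm beige libraries, against 8.87, 8.82, 9.09 and 8.73 in cold beige libraries. In brown libraries it had 7.11, 6.95, 6.85, 7.24 and 7.08 log2 CPM in the warm, against 8.53, 8.26, 8.11, 8.34 and 8.32 in the cold. Both pairs were fully separated, and warm beige 1 was the lowest of all 22 libraries. The fall was 3.26-fold in beige (-1.70 ± 0.17, limma adjusted p = 5.22e-09) and 2.40-fold in brown (-1.27 ± 0.14, limma adjusted p = 3.28e-08). The effects did not differ by the test (-0.44, 95% interval -0.89 to 0.01, limma adjusted p = 0.103), although without warm beige 2 or warm beige 3 the adjusted p was 0.0351 or 0.0369.

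Warm white libraries had 7.92, 7.50, 7.92, 7.86 and 7.56 log2 CPM of Pnpla3. Against warm white, Pnpla3 was lower in warm beige (-0.58 ± 0.16, limma adjusted p = 0.00635) and higher in cold beige (1.13 ± 0.15, limma adjusted p = 3.5e-07). It was lower in warm brown (-0.71 ± 0.14, limma adjusted p = 7.62e-05) and higher in cold brown (0.56 ± 0.14, limma adjusted p = 0.000734). The warm beige call was lost without warm beige 1 (-0.27, adjusted p = 0.0997) and within library set 1 (-0.19, adjusted p = 0.522), and the cold brown call under quantile normalization (0.30, adjusted p = 0.0795) and within library set 2 (0.37, adjusted p = 0.121). Cold beige was 1.48-fold higher than cold brown (0.57 ± 0.15, limma adjusted p = 0.0021), but within library set 1 that difference (0.405) did not pass. Warm beige and warm brown did not pass (0.13, 95% interval -0.20 to 0.46, limma adjusted p = 0.477), but without warm beige 1 the difference was 0.43 (adjusted p = 0.00447).

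Lipe, hormone-sensitive lipase (chromosome 7, 25379527 to 25398486), was nearly level across temperatures. It had 10.75, 10.78 and 10.79 log2 CPM in warm beige libraries, against 10.80, 10.90, 10.85 and 10.75 in cold beige libraries. In brown libraries it had 10.74, 10.72, 10.73, 10.72 and 10.71 log2 CPM in the warm, against 10.87, 10.72, 10.77, 10.91 and 10.85 in the cold. Both pairs overlapped. The log2 difference had a 95% interval of -0.24 to 0.13 in beige and -0.25 to 0.05 in brown (limma adjusted p = 0.61 and 0.228), and the effects differed by 0.05 with an interval of -0.19 to 0.29 (adjusted p = 0.758). This result depends on the scale. Under quantile normalization Lipe was higher in the warm, by 0.31 in beige and 0.26 in brown (adjusted p = 0.00296 and 0.00333), whereas median-of-ratios scaling gave a fall in brown (-0.21, adjusted p = 0.0135).

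Warm white libraries had the highest mean of Lipe, with 11.18, 11.29, 10.95, 11.09 and 10.91 log2 CPM. The log2 difference from them was -0.31 ± 0.08 in warm beige, -0.26 ± 0.08 in cold beige, -0.36 ± 0.07 in warm brown and -0.26 ± 0.07 in cold brown (limma adjusted p = 0.00583, 0.00475, 0.000119 and 0.0024). The highest cold brown library, at 10.91, met the lowest white one. In warm beige the call was lost under quantile normalization (-0.01, adjusted p = 0.963), without the 20 most abundant genes in the totals (-0.21, adjusted p = 0.0533) and in a fit of the groups compared alone (adjusted p = 0.109). Within the library sets the 4 calls were lost in set 1 (adjusted p = 0.0547 to 0.29), and 3 of them in set 2 (0.0542 to 0.189). Beige and brown did not differ by the test in the warm (0.05, 95% interval -0.13 to 0.23) or in the cold (0.00, -0.16 to 0.16; limma adjusted p = 0.606 and 0.992).

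Mgll, which encodes the lipase of the last step, had the lowest adjusted p of the 7 members in both comparisons of warm with cold. It had 9.42, 9.61 and 9.29 log2 CPM in warm beige libraries, against 11.11, 10.96, 10.99 and 11.05 in cold beige libraries. In brown libraries it had 9.30, 9.29, 9.23, 9.34 and 9.29 log2 CPM in the warm, against 11.13, 11.22, 10.96, 11.02 and 11.13 in the cold. No warm library came near a cold one in either cell type. Warm beige was 3.01-fold lower than cold beige (-1.59 ± 0.08, limma adjusted p = 1.41e-13) and warm brown was 3.49-fold lower than cold brown (-1.80 ± 0.07, limma adjusted p = 1.35e-15). Within library sets 1 and 2 the differences were -1.79 and -1.46 in beige and -1.88 and -1.75 in brown, all called.

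The beige and brown effects on Mgll differed by 0.21 (95% interval -0.01 to 0.44, limma adjusted p = 0.109). This passed under 3 other scalings (0.31 to 0.37, adjusted p = 0.00656 to 0.0133), with library weights (0.30, adjusted p = 0.0144) and without warm beige 3 (0.29, adjusted p = 0.0299). Cold beige and cold brown did not pass (-0.06, 95% interval -0.22 to 0.09, limma adjusted p = 0.459), except under median-of-ratios scaling (-0.17, adjusted p = 0.0438). Warm beige and warm brown did not pass either (0.15, 95% interval -0.02 to 0.32, limma adjusted p = 0.0923). That last difference passed in 7 of 23 alternatives, one of them without warm beige 3 (0.23, adjusted p = 0.019).

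White adipocytes lay between the cold and the rewarmed groups for Mgll, at 9.78, 9.78, 9.94, 9.80 and 9.73 log2 CPM. Rewarmed libraries were below them, by 1.29-fold in warm beige (-0.37 ± 0.08, limma adjusted p = 0.000897) and by 1.43-fold in warm brown (-0.52 ± 0.07, limma adjusted p = 4.67e-07). Cold libraries were above them, by 2.33-fold in cold beige (1.22 ± 0.07, limma adjusted p = 7.16e-13) and by 2.44-fold in cold brown (1.29 ± 0.07, limma adjusted p = 3.8e-14). None of these groups overlapped the white range. The warm beige call was lost under quantile normalization (-0.17, adjusted p = 0.086) and within library set 1 (-0.47, adjusted p = 0.0707).

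The log2 level of Mgll minus that of Lipe within a library was likewise taken after the values were seen. It averaged -1.33 ± 0.17 in warm beige and 0.20 ± 0.12 in cold beige (SD), and -1.43 ± 0.04 in warm brown and 0.27 ± 0.15 in cold brown. Warm white libraries averaged -1.28 ± 0.19. A scaling that multiplies whole libraries leaves this quantity as it is. Every cold library stood above every warm one.

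Aqp7, the glycerol channel (chromosome 4, 41033074 to 41048237), took a different course. It had 8.05, 7.61 and 7.67 log2 CPM in warm beige libraries, against 7.83, 7.70, 7.72 and 7.95 in cold beige libraries. Those groups overlapped (-0.02, 95% interval -0.27 to 0.22, limma adjusted p = 0.866). In brown it rose with warming: it had 8.49, 8.60, 8.58, 8.54 and 8.51 log2 CPM in warm libraries, against 7.96, 7.94, 8.08, 8.08 and 8.05 in cold libraries, with no overlap. Warm brown was 1.44-fold higher than cold brown (0.52 ± 0.10, limma adjusted p = 5.68e-05). The beige effect minus the brown effect was -0.55 ± 0.15 (limma adjusted p = 0.00548). Within library sets 1 and 2 it was -0.82 and -0.35, which passed in neither (adjusted p = 0.0512 and 0.171).

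Beige and brown libraries held more Aqp7 than white ones in the warm and in the cold. Warm white libraries had 6.52, 6.74, 6.96, 6.45 and 7.04 log2 CPM, below every other library. The excess over warm white was 2.05-fold in warm beige, 2.08-fold in cold beige, 3.49-fold in warm brown and 2.43-fold in cold brown (limma adjusted p = 2.7e-07, 3.6e-09, 9.53e-14 and 2.43e-11), and each was also called within both library sets. Warm beige libraries, in which Ucp1 averaged 1.03 log2 CPM, kept a level of Aqp7 above white. Warm beige was 1.70-fold lower than warm brown (-0.77 ± 0.11, limma adjusted p = 2.26e-06), while cold beige and cold brown did not pass (-0.22, 95% interval -0.44 to -0.01, limma adjusted p = 0.0673). The difference in the cold passed in 5 of 24 alternatives. Among them were median-of-ratios scaling (-0.33, limma adjusted p = 0.00693), library weights (-0.26, adjusted p = 0.00412) and the fit without cold beige 4 (-0.27, adjusted p = 0.0408).

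**Figure D3:**
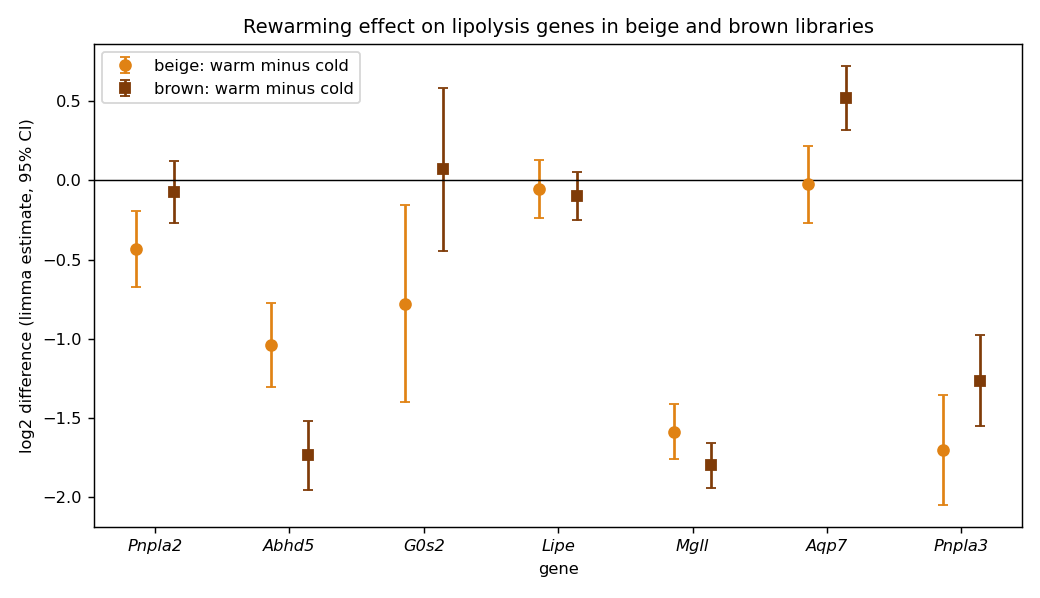
Log2 difference of warm minus cold libraries for each lipolysis gene (vertical axis, limma estimate with 95% confidence interval) in beige (circles) and brown (squares). Mgll, Abhd5 and Pnpla3 lie below -1 in both cell types, Lipe intervals include 0 in both, and Aqp7 lies at 0.52 in brown and at -0.02 in beige.

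Set against warm white libraries, the 7 genes took opposite counts in the warm and the cold. In warm beige, 1 member was higher and 5 were lower (17.0% and 22.4% of all rows, 39.4% in either direction), and in cold beige 5 were higher and 1 was lower (38.0% and 37.2%, 75.2% in either direction). In warm brown, 2 were higher and 5 were lower (40.9% and 38.1% of all rows, 79.0% in either direction), and in cold brown 5 were higher and 2 were lower (40.4% and 45.2%, 85.6% in either direction). These comparisons share the warm white libraries, so they are given side by side only. The median member difference was -0.37 in warm beige, 0.51 in cold beige, -0.52 in warm brown and 0.70 in cold brown, where the median over all rows was -0.04, 0.01, 0.03 and -0.10. Between cell types, 0 members were higher and 2 lower in warm beige against warm brown (35.3% and 40.1% of all rows, 75.5% in either direction), and 2 were higher and 1 lower in cold beige against cold brown (34.7% and 27.2%, 61.9% in either direction).

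**Figure D4:**
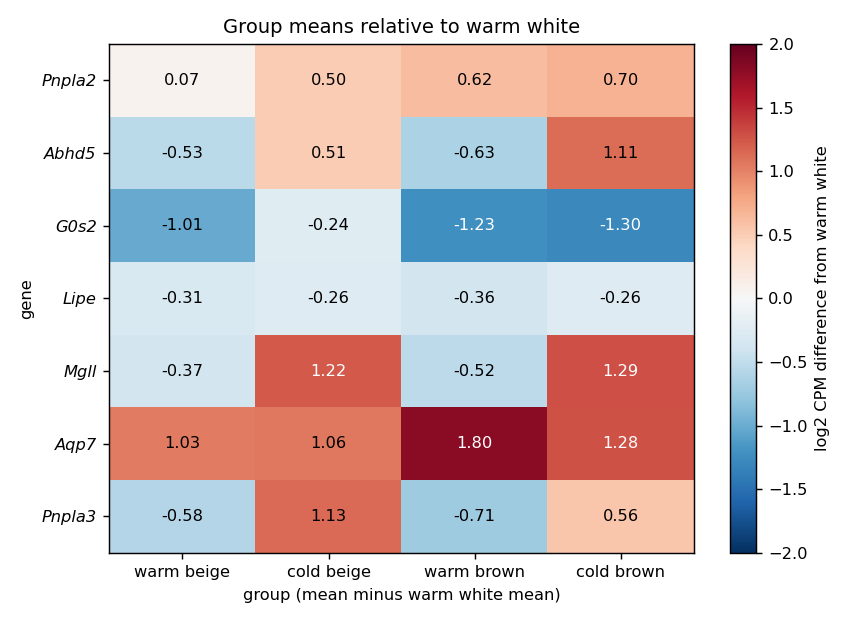
Mean log2 CPM of each lipolysis gene in warm beige, cold beige, warm brown and cold brown libraries minus its mean in warm white libraries, written in each cell and coloured from -2 (blue) to 2 (red). Mgll, Abhd5 and Pnpla3 are negative in both warm columns and positive in both cold columns, whereas Aqp7 is positive and Lipe negative in all 4.

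Across the 22 libraries, which share group, depot and any set effect, Mgll varied together with Abhd5 (Pearson r = 0.936) and with Pnpla3 (0.903), and Abhd5 with Pnpla3 (0.808). Lipe and Aqp7 ran in opposite directions (-0.86). Rows whose pattern was among the most like Mgll were Adcy10 (r = 0.987), the soluble adenylyl cyclase, and Pgd (0.983), a dehydrogenase of the pentose phosphate pathway. Abhd5 was most like Atp6v0d1 (0.972), a subunit of the vacuolar proton pump, Slc4a2 (0.968), an anion exchanger, and Nr1h3 (0.962), which encodes the nuclear receptor LXRα. Pnpla3 was most like Dgat1 (0.963), an enzyme of triglyceride synthesis, Rilpl2 (0.955) and the autophagy gene Atg2a (0.954). Pnpla2 was most like Cul2 (0.95), Uba1 (0.948) and Ide (0.948), and Aqp7 like Ntrk3 (0.979), Gas1 (0.973) and Itpr2 (0.972). For Lipe the most like rows were Wdsub1 (0.87), Ptpn1 (0.853) and Kcnk2 (0.839), and for G0s2 they were Fbxo27 (0.806), Nlrx1 (0.797) and Cdk14 (0.79). These are descriptions over libraries of the same 5 groups, with no test.

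Around these 7 genes, receptors and the cAMP arm that switch lipolysis on showed changes in both directions. Of 21 measured genes, 7 rose and 7 fell in beige (median 0.09, against 0.03 over all rows), and 10 rose and 5 fell in brown (median 0.41, against 0.13). These counts were near the background, since 36.0% of all rows were called higher and 36.9% lower in beige, and 41.2% and 30.1% in brown. Without warm beige 2, 4 rose in beige. The adenylyl cyclase gene Adcy3 fell 6.82-fold in beige and 3.84-fold in brown (-2.77 ± 0.12 and -1.94 ± 0.10, limma adjusted p = 7.1e-15 and 1.84e-13), and Adcy5 rose 6.55-fold in beige and 79.3-fold in brown (2.71 ± 0.22 and 6.31 ± 0.18, limma adjusted p = 2.78e-10 and 3.11e-17). Adrb3, the main adipocyte beta-adrenergic receptor in mice, was higher in warm than cold beige by 0.67 ± 0.24 (limma adjusted p = 0.0163) and lower in warm than cold brown (-1.18 ± 0.20, limma adjusted p = 1.64e-05). Its effects differed by 1.84 ± 0.31 (limma adjusted p = 4.22e-05). The beige call was lost without warm beige 2 (0.44, limma adjusted p = 0.135) and within library set 2 (0.605, limma adjusted p = 0.0627). Within library set 1, which has 1 warm beige library, Adrb3 was called neither in beige (0.76) nor in brown (-0.79). The difference of effects there (1.55) was not called either. The difference for Prkaca, the catalytic subunit of protein kinase A, was -1.85 ± 0.09 (limma adjusted p = 7.64e-13). Of the 21 genes, 11 had a lower and 1 a higher effect in beige than in brown, a difference called lower for 32.4% and higher for 14.8% of all rows.

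The list of 20 genes that oppose lipolysis also moved both ways, with 8 higher and 7 lower in beige (median 0.13, against 0.03 over all rows) and 8 higher and 6 lower in brown (median 0.07, against 0.13). These counts too were near the all-row shares of 36.0% and 36.9% in beige and 41.2% and 30.1% in brown. The lactate receptor gene Hcar1 rose 5.63-fold in beige and 27.8-fold in brown (limma adjusted p = 2.53e-08 and 2.87e-14), and the hydroxybutyrate and niacin receptor gene Hcar2 rose 4.56-fold and 14.4-fold (limma adjusted p = 1.88e-06 and 1.35e-11). Ffar4, a receptor for long-chain fatty acids, fell 6.55-fold in beige and 13.5-fold in brown (limma adjusted p = 9.14e-11 and 2.37e-14). Pde3b, the phosphodiesterase through which insulin lowers cAMP, differed by 0.13 ± 0.08 in beige (limma adjusted p = 0.156) and fell by 0.22 ± 0.07 in brown (limma adjusted p = 0.00651). Both results depend on the scale. In beige it was called higher under quantile normalization (0.41), a common total (0.28) and totals without the 20 most abundant genes (0.35). Their limma adjusted p lay between 0.000202 and 0.00219. Under the same scalings the brown call was lost (0.06, -0.07 and -0.09, limma adjusted p = 0.449, 0.329 and 0.181). The first of these turned the direction. Within library set 1 the brown difference was -0.235 and was not called. Hcar1 had a smaller rise in beige than in brown (-2.30 ± 0.35, limma adjusted p = 1.18e-05), as did Hcar2 (-1.66 ± 0.41, adjusted p = 0.00191), whose difference reversed to 0.13 (adjusted p = 0.743) when 5 CPM were added before the logarithm.

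Among 12 proteins of the droplet surface that bind lipases or gate their access, 4 rose and 4 fell in beige and 3 rose and 6 fell in brown (medians -0.03 and -0.22, against 0.03 and 0.13 over all rows). The all-row shares were 36.0% higher and 36.9% lower in beige, near the list's counts, and 41.2% higher and 30.1% lower in brown. Plin2, a droplet coat protein, fell 6.45-fold in beige and 6.40-fold in brown (limma adjusted p = 2.09e-14 and 1.61e-15). Hilpda, an inhibitor of ATGL like G0s2, rose 3.29-fold in beige and 4.81-fold in brown (limma adjusted p = 3.59e-08 and 2.05e-11). Plin1, which holds ABHD5 at the droplet until it is phosphorylated, differed by -0.15 ± 0.09 in beige without passing (limma adjusted p = 0.163), and fell in brown (-0.34 ± 0.08, limma adjusted p = 0.000456), a call lost under quantile normalization (adjusted p = 0.341). For Plin5, the perilipin of oxidative tissues, the beige effect minus the brown effect was -1.33 ± 0.24 (limma adjusted p = 9.35e-05).

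Of 21 other neutral lipid and monoglyceride hydrolases, 13 fell and 5 rose in beige and 12 fell and 5 rose in brown (medians -0.61 and -0.60, against 0.03 and 0.13 over all rows). Over all rows, 36.9% fell and 36.0% rose in beige, and 30.1% fell and 41.2% rose in brown. Abhd6, another monoglyceride hydrolase, fell 7.78-fold in beige and 3.74-fold in brown (limma adjusted p = 1.39e-11 and 1.16e-09). Lipg, endothelial lipase, fell 9.51-fold and 10.6-fold (limma adjusted p = 0.00217 and 0.00024), from mean levels of 3.14 and 3.52 log2 CPM in the cold groups, and within library set 1 its beige fall did not pass (adjusted p = 0.367). Ddhd2, a triglyceride and phospholipid hydrolase, fell 4.04-fold in beige and 4.83-fold in brown (limma adjusted p = 1.46e-14 and 1.9e-16). Lpl, the lipase that frees fatty acids from blood lipoproteins, fell by 0.61 ± 0.11 in beige and by 0.60 ± 0.09 in brown (limma adjusted p = 5.01e-05 and 6.16e-06). Both calls were lost within library set 1, where the difference was -0.46 in beige and -0.46 in brown.

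Of 11 measured genes that handle glycerol or put fatty acids back into triglyceride, 10 fell and 0 rose in beige and 8 fell and 0 rose in brown, where 36.9% and 30.1% of all rows fell (medians -1.42 and -1.23, against 0.03 and 0.13 over all rows). Pck1, which makes the glycerol backbone from pyruvate or lactate carbon, was the 1 gene that did not pass in beige (0.06, adjusted p = 0.782 by limma). In brown Dgat2 (0.01), Lpin1 (0.13) and Aqp11 (-0.43) did not pass (limma adjusted p = 0.916, 0.289 and 0.0658). Gk, the glycerol kinase that lets an adipocyte reuse the glycerol freed by lipolysis, fell 56.5-fold in beige and less far in brown (log2 -5.82 ± 0.13 and -3.33 ± 0.11, limma adjusted p = 1.56e-19 and 1.27e-16). Its fall was larger in beige (-2.49 ± 0.17, limma adjusted p = 1.11e-10). Agpat2, which adds the second acyl chain, fell 22.5-fold in beige and 10.4-fold in brown (limma adjusted p = 5.84e-15 and 4.36e-14). Gpd2, the mitochondrial glycerol-3-phosphate dehydrogenase, fell 13.9-fold in beige and 2.35-fold in brown (limma adjusted p = 8.63e-17 and 5.82e-10), and Dgat1 fell 2.67-fold in beige and 2.68-fold in brown (limma adjusted p = 7.52e-09 and 3.99e-10). Of these 11 genes, 6 had a lower and 1 a higher effect in beige than in brown (32.4% and 14.8% of all rows).

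Of 14 transcriptional regulators reported to act on lipase genes, which include the deacetylase gene Sirt1, 4 rose and 4 fell in beige and 6 rose and 3 fell in brown (medians 0.00 and 0.13, against 0.03 and 0.13 over all rows). The counts were near or under the all-row shares of 36.0% higher and 36.9% lower in beige and 41.2% and 30.1% in brown. Ppara, the fatty acid receptor of oxidative tissues, fell 11.1-fold in beige (-3.48 ± 0.17, limma adjusted p = 4.19e-14) and did not pass in brown (0.11, limma adjusted p = 0.494), and its beige effect minus its brown effect was -3.59 ± 0.22 (limma adjusted p = 2.43e-11). Foxo3, reported to raise Pnpla2 transcription, rose 3.22-fold in beige and 2.23-fold in brown (limma adjusted p = 1.17e-09 and 2.76e-08). Nr1h3, the LXRα gene, fell 2.74-fold in beige and 3.74-fold in brown (limma adjusted p = 3.13e-10 and 1.98e-13). Among the 14 genes, 5 had a higher and 2 a lower effect in beige than in brown (14.8% and 32.4% of all rows), and without cold beige 3 or warm brown 4 the count of higher effects was 3.

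**Figure D5:**
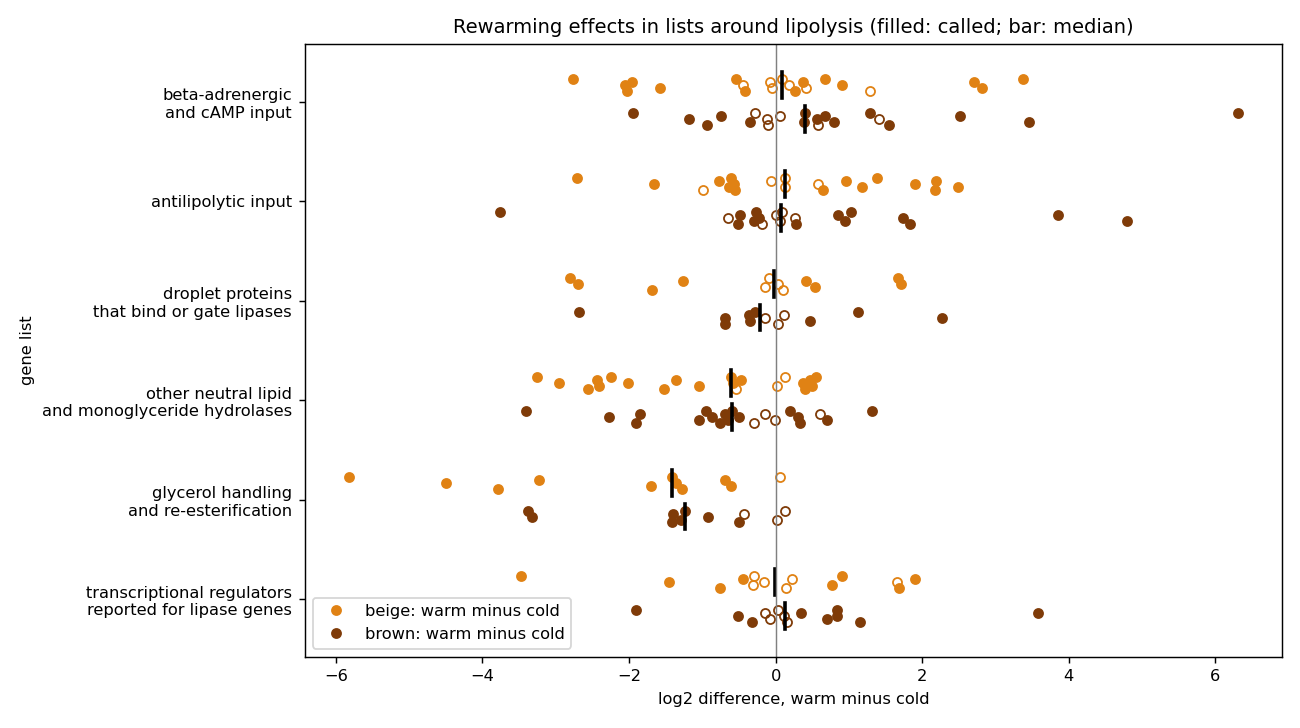
Log2 difference of warm minus cold libraries (horizontal axis) for every measured gene of 6 lists around lipolysis, in beige (upper points of each list) and brown (lower points); filled points passed the limma threshold of 0.05 and bars are medians. The glycerol handling and re-esterification list lies mostly left of 0, with medians of -1.42 in beige and -1.23 in brown.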

How the data were processed

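Messenger RNA was measured in 22 libraries of 5 groups. The authors deposited 1 table of log2 CPM values (read counts scaled for library size). The name of the table and values between -7.21 and 15.78 give the unit. The submitters' processing notes list mm10 with featureCounts, edgeR, HISAT2 and Picard; versions, roles, gene models and strand are not given in the sources used here, so overlapping genes could not be told apart. Library depth is unknown, which leaves no counting interval.

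All 22 libraries entered a limma-trend fit (limma 3.58.1, R 4.3.3) of the deposited values with a mean for each group, 17 residual degrees of freedom, 9 comparisons and two-sided p-values adjusted by Benjamini and Hochberg over 11603 rows. Every row passed a filter of 1 CPM in 3 libraries. Floor rows (9 in brown, 2 in inguinal fat) take slightly different values in 10 and 12 libraries, as if a set effect had been removed before deposit; the degrees of freedom do not count it. Set 1 holds 1 warm beige, 2 cold beige, 2 warm brown, 2 cold brown and 3 warm white libraries.

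The 7 members, the lists of related genes, the markers and the tests were chosen with earlier results of these data known. Named genes were the members, 6 partners (Plin1, Hilpda, Adrb3, Pde3b, Lpl, Gk), the 3 called genes with the largest change per list and comparison, and the 3 rows most correlated with each member; those described are a selection of these, and some genes the rule names are not reported here. Gnas has more than 1 row, and the row with the higher mean was used. Upstream sequences came from RefSeq (GRCm38.p6), where 7 of 7 members matched. The script was tested on simulated data. Alternatives were 1 or 5 CPM added, no filter, a filter of 5 CPM, 4 scalings, only the groups compared and library weights. A replicate block, the library set as a term, each library set alone and each library left out were also run. Every row passed the filter, and the coefficient of the set term was at most 0.005. The fits with no filter and with the set term were therefore bound to stay near the reported fit, yet they count among the alternatives.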

Additional observations from a re-analysis of the deposited data

Results flagged for a closer look

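Abhd5 in cold brown 1, at 8.72 log2 CPM, stood apart from the other 4 cold brown libraries, which lay between 8.87 and 8.91. This was 1 of 28 groups of values examined for a library far from the rest, and chance marks about 1 in 20 of them. The rewarming effect on Abhd5 differed between beige and brown by 0.70 log2 units in a test of the difference itself (limma, adjusted p = 0.00133), the fall being larger in brown. The rewarming effect on Aqp7 differed by -0.55 log2 units in the same test (adjusted p = 0.00548), with a rise in brown and a beige difference of -0.02.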

How the results depend on the processing

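Of the 446 recounts of members called, 396 stayed within 1.5 times the count reported; the cause of the others was not tested. For the difference of effects, members called higher numbered 2 under median-of-ratios scaling, quantile normalization, totals without the 20 most abundant genes and library weights, and 0 within set 1. Members called lower there numbered 2 with 1 or 5 CPM added, a filter of 5 CPM, a common total or only the groups compared, 3 with library weights and 0 within either set. Leaving out 1 library gave 1 to 2 higher and 1 to 3 lower. In warm against cold beige, quantile normalization gave 1 higher and 3 lower, and totals without 20 genes and set 1 gave 3 lower; in warm against cold brown, quantile normalization gave 3 higher. In warm beige against warm white, the count lower was 3 under quantile normalization, 1 within set 1 and 3 within set 2. In cold beige against warm white it was 0 within either set, and in cold brown against warm white 1 within either set. In cold beige against cold brown, the count lower was 4 under median-of-ratios scaling, 2 with only the groups compared, library weights or set 2, and 1 to 2 with a library left out, and the count higher was 1 within set 1. In warm beige against warm brown, the count higher was 1 under median-of-ratios scaling, quantile normalization, a common total and set 2, 2 with totals without 20 genes or library weights, and 0 to 1 with a library left out.

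Quantile normalization turned Lipe to 0.31 in beige and 0.26 in brown, Pnpla2 to 0.23 in brown and Pde3b to 0.0645 in brown. Adding 5 CPM turned the Hcar2 difference to 0.13, and within set 1 the Mlxipl difference was 0.015. The median of all rows moved by up to 0.22 in beige (totals without 20 genes), 0.15 in brown (common total) and 0.21 in the difference (quantile normalization). The share of higher calls among all calls was 60.8% in beige with totals without 20 genes, against 49.4% as deposited, and in the difference 49.7% under quantile normalization, against 31.3%. Relative to warm white, warm beige had 61.0% with totals without 20 genes, against 43.1%. Mgll, Abhd5 and Pnpla3 fell in both cell types under every alternative run, each past the threshold, with log2 differences between -1.93 and -0.79. Over the 63 member tests, 35 kept their call under every alternative. A test called in neither fit was counted as kept whatever its sign.

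Libraries of different groups share replicate numbers, and in no comparison did the deviations of every same-numbered pair correlate above 0.1. By library number, every pair was positive between cold beige and cold brown (0.071 to 0.35) and between warm beige and warm brown (0.065 to 0.205). Whether those libraries came from the same mice was not tested. With a replicate block, 2 members were called lower in the difference of effects, by replicate number or by library number, the added one being G0s2 (adjusted p = 0.0354 and 0.0104).

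Depth is unknown, so the precision of low values is not known. Warm beige has 3 libraries, and with 1 warm beige library in set 1 that library is assumed to vary like the other groups.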
